A study of Mus musculus with 42 samples.

Results

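Integrin and laminin genes were examined in sorted goblet cells, sorted stromal cells and organoids of the mouse colon. The genes were chosen by name: every gene called Itga, Itgb, Lama, Lamb or Lamc followed by its subunit number or letter, which gave 36 of the 19232 gene names listed in at least 1 of the 12 deposited tables. They were 17 integrin alpha subunits, 8 integrin beta subunits and 11 laminin chains. RNA was sequenced from 42 libraries to ask how loss of BMP signaling in stromal cells, or interleukins added to the culture, changed gene expression. BMP signals pass through the receptor ALK3, encoded by Bmpr1a, to a complex that contains SMAD4. All mice from which cells were sorted carried Gli1-CreERT2, a tamoxifen-inducible recombinase driven by the Gli1 locus. The deletion was thus made in Gli1+ stromal cells, and the goblet cells were not themselves targeted. These mice received 100 μl of tamoxifen at 20 mg/ml on each of 5 days, were of both sexes and 2 to 4 months old, and cells were sorted at day 30.

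Goblet cells were sorted by a Muc2-mCherry reporter from Gli1-CreERT2 control mice (GWTM2), from mice with floxed Smad4 (GS4M2) and from mice with floxed Alk3 (GA3M2). Stromal cells were sorted by a Cre-dependent tdTomato reporter from the matching GWTT, GS4T and GA3T mice, so tdTomato marked every cell in which the recombinase had acted, and their descendants. Each of these 6 kinds of sample came from both colon segments, proximal and distal, with 2 libraries per group. Whether a library came from 1 mouse or from several was not stated, so p-values measure the spread between libraries. Wild-type colonic organoids, which are epithelial cells grown in Matrigel, were left untreated (Control) or received 10 nM IL-1 alpha plus IL-1 beta (IL1a+IL1b, here IL-1) or 10 nM IL-17A for 12 or 72 hours, with 3 libraries per group. Matrigel is itself rich in laminin, and all organoid groups shared it.

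Integrins are cell surface receptors made of an alpha and a beta subunit, which tie the cytoskeleton to the extracellular matrix or to other cells. Laminins are secreted trimers of an alpha, a beta and a gamma chain, and they form the sheet-like core of basement membranes together with type IV collagen, nidogens and perlecan. In the gut, epithelial cells rest on a laminin-rich basement membrane to which both the epithelium and the underlying fibroblasts contribute chains. Laminins that contain the chains Lama3 and Lamb3 are bound by the integrins alpha 3 beta 1 and alpha 6 beta 4, and the latter anchors epithelial cells in hemidesmosomes.

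Some libraries stood apart or shared reads. The targeted genes went with the labels: Smad4 lay at 680 to 1171 normalized counts in the 4 GS4T libraries and at 1604 to 1781 in their controls, and Bmpr1a lay at 1842 to 2233 in the 4 GA3T libraries and at 2960 to 3485 in their controls. Fibroblast markers were high in all 12 stromal libraries, but Gli1 itself was at 23.9 normalized counts in proximal GS4T library 2 and at 34.7 in proximal GA3T library 2, against 1481 and 1292 in the other library of each group. Muc2 was lower in the 4 GA3M2 libraries, with 12290 to 18750 normalized counts, than in their controls, with 41160 to 224200. Reads of the X-linked Xist and of Y-linked genes put control goblet library 1 of each segment as female, every knockout goblet library as male, the 4 GS4T libraries as female, and proximal GWTT library 1 as male. Sex and genotype therefore overlapped in part. In the organoids, 2 control libraries carried the same reads at 12 and at 72 hours in all 14537 genes listed in both tables (12-hour library 2 with 72-hour library 1, and library 4 with library 4), and 72-hour control library 2 was close to library 4. The controls of both times thus amounted to 3 distinct libraries, and at which time the shared ones were taken was not known. Time in culture and the cytokine can therefore not be told apart in the comparisons of either time. At 12 hours, treated libraries 3 and 4 of each cytokine were also near-identical, and so were library 1 with IL-1 and library 1 with IL-17A, so that each cytokine had about 2 distinct libraries at that time.

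In control cells, many integrins and laminins differed in level between goblet and stromal cells. Levels were given in CPM, the reads of a gene scaled to all reads on named genes in its library. They were compared between the 4 GWTM2 and the 4 GWTT libraries, over both segments. This was a description without a test, because the tables had been normalized separately. Of the 24 members listed in all 8 libraries, 13 were higher in every stromal than in every goblet library and 8 were higher in every goblet library, while among all genes with a mean of at least 1 CPM these shares were 28.2% and 42.4%. The remaining 3, Itga7, Itga10 and Itgam, overlapped, and 12 members were not listed in all 8 libraries. The goblet members included the laminin chains Lama3 and Lamb3, the receptor subunits Itga3, Itga6 and Itgb4 of such laminins, the collagen receptor subunit Itga2 and Itgb6, which pairs with alpha v. The 13 stromal members included Itgb1, the common partner of most alpha subunits, the fibronectin receptor subunit Itga5, Itgav, and the laminin chains Lama5, Lamb1, Lamb2 and Lamc1.

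Itgb4, the hemidesmosomal beta subunit, was at 363, 337, 451 and 425 CPM in the goblet libraries (proximal 1 and 2, distal 1 and 2) and at 3.61, 15.1, 8.29 and 9.48 in the stromal libraries. Its partner Itga6 was at 375 ± 43.7 CPM (SD, n = 4) in goblet and 10.1 ± 4.66 in stromal libraries. These stromal levels were low throughout. Lamc1, the gamma chain of most laminins, was at 14.9, 12.1, 5.50 and 6.69 CPM in goblet and at 2158, 1971, 1911 and 1900 in stromal libraries. Lamb1, which joins Lamc1 in the classical trimers, was at 6.16 ± 6.74 in goblet and 1807 ± 197 in stromal libraries. Both chains were thus largely stromal, and the goblet level of Lamb1 differed between segments, at 8.67 and 14.5 in the proximal and 0.793 and 0.625 in the distal libraries.

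Per kilobase of exon, which allows genes to be ranked, Itgb1 led in goblet cells at 71.6 ± 7.49 RPKM (CPM divided by exon length in kilobases, SD, n = 4), followed by Itgb4 at 56.2 ± 7.51, Itga3 at 45.5 ± 12.6, Itga6 at 41.5 ± 4.84 and Itga2 at 30.1 ± 7.45. Except for Itgb1, each of these overlapped in range with the next in this order. In stromal cells Lamc1 led at 240 ± 14.5 RPKM, followed by Itgb1 at 224 ± 27.7, Lamb1 at 182 ± 19.9 and Itgb5 at 92.2 ± 6.75. The ranges of Lamc1 and Itgb1 overlapped, as did those of Itgb1 and Lamb1. The stromal alpha chains Lama2 and Lama4 were at 78.1 and 67.7 RPKM. Lama5 differed in level between the segments of the stroma, at 23.5 and 27.8 CPM in the proximal and 147 and 132 in the distal libraries.

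**Figure D1:**
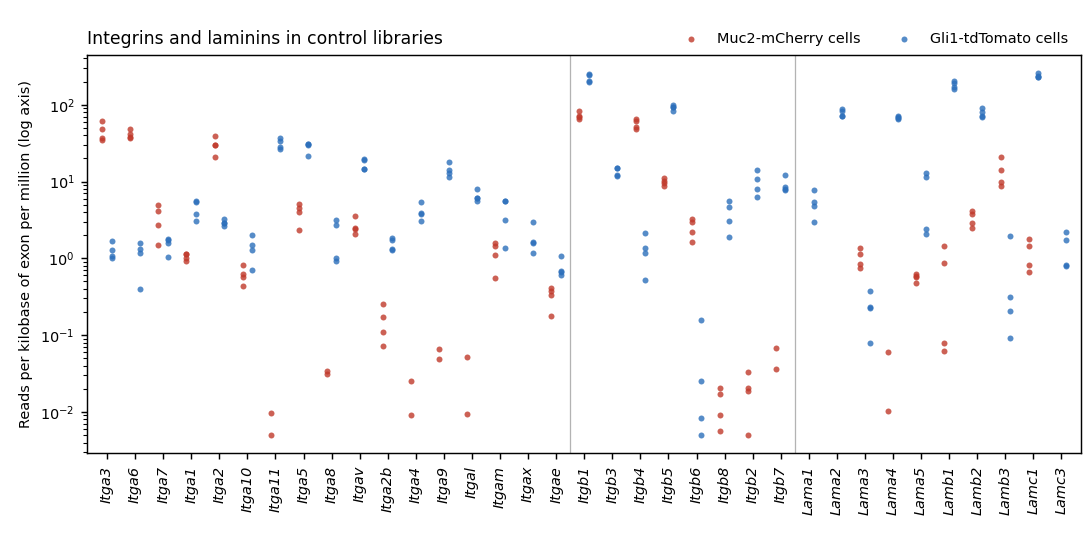
Level of the members in control libraries, in RPKM (CPM per kilobase of exon) on a log axis. Each point is 1 library of Muc2-mCherry goblet cells (red) or Gli1-tdTomato stromal cells (blue), with values under 0.005 drawn at 0.005 and members without a row left blank. Itga3, Itga6 and Itgb4 lie higher in goblet cells, and Lamb1, Lamb2 and Lamc1 lie higher in stromal cells.

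Knockout or cytokine libraries were then compared with their controls in 12 comparisons, each on log2(normalized count + 1) with limma. Members with a mean of at least 10 normalized counts were tested, and a change was called at an adjusted p under 0.05 together with a log2 fold change of at least 1 in size. Counts at an unadjusted p under 0.05 and counts by DESeq2 kept this fold limit, also for differences between segments or times. The 2 knockouts shared their control libraries in each cell type and segment, as did the 2 cytokines at each time. Most calls fell in stromal cells after Smad4 loss and in organoids after 72 hours.

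**Figure D2:**
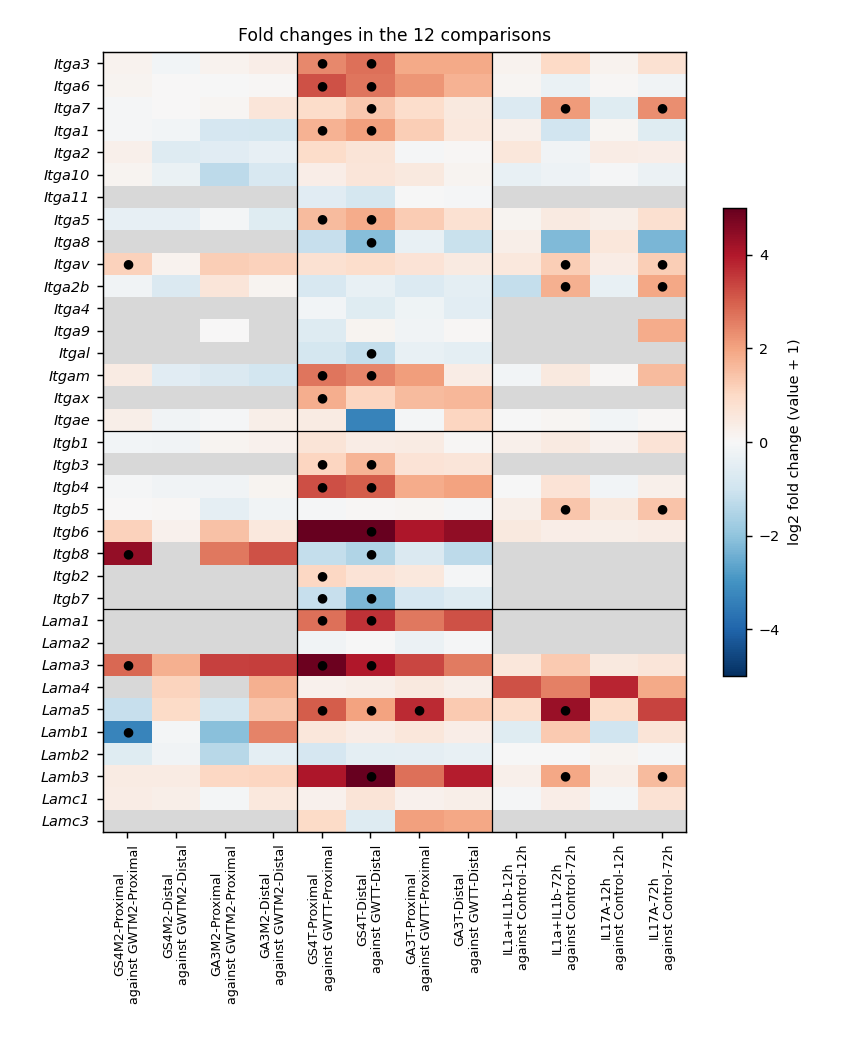
Log2 fold change of each member (rows) in the 12 comparisons (columns): goblet cells, stromal cells and organoids, from left to right. Red is higher and blue is lower than in control, the colour scale ends at 5, grey marks members that were not tested, and dots mark called changes. Most dots lie in stromal Smad4 loss and in organoids at 72 hours.

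In stromal cells of GS4T mice, all 36 members passed the minimum level. Proximally 13 rose and 1 fell, beside 9.61% of all 15319 genes tested (5.25% up and 4.36% down). Distally 14 rose and 4 fell, beside 14% of 15262 genes (7.88% up and 6.08% down). The median log2 fold change of the members was 0.82 proximally and 0.65 distally, against 0.02 and 0.0049 over all genes. The epithelial laminin chains Lama3 and Lamb3, their receptor subunits Itga3, Itga6 and Itgb4, the alpha chains Lama1 and Lama5, the fibronectin receptor subunit Itga5, the collagen receptor subunit Itga1 and Itgb3 rose in both segments, with the exception of Lamb3, which was called in the distal colon alone, whereas Itgb7 fell in both segments and Itga8, Itgb8 and Itgal fell in the distal colon.

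The members that were typical of goblet cells were among those with the highest fold changes. Lama3, an alpha chain of epithelial laminins, went from 14.5 and 40.0 normalized counts in GWTT to 764 and 722 in GS4T in the proximal colon (log2 fold change 4.88, SE 0.49, adjusted p = 0.0081). Distally it went from 41.1 and 65.8 to 679 and 1070 (4.01, SE 0.33, adjusted p = 0.0018). The groups did not overlap in either segment. Lamb3, a beta chain that joins Lama3, rose distally from 22.5 and 33.9 to 662 and 1256 (4.995, SE 0.38, adjusted p = 0.0016). Its proximal values were 10.3 and 212 against 805 and 816, and this difference missed the threshold (adjusted p = 0.10). The low proximal control was the male library 1 and the higher one was library 2. Library 1 was also lower in the summed epithelial markers described below, at 9.67 against 382 CPM in library 2.

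Of the receptor subunits for these chains, Itga6 was at 60.0 and 239 normalized counts in proximal GWTT and at 978 and 1202 in GS4T libraries (log2 fold change 3.17, SE 0.64), and at 196 and 173 against 922 and 1483 in the distal colon (2.66, SE 0.25). Itgb4 was at 61.0 and 250 against 1065 and 1305 proximally (3.24, SE 0.65) and at 136 and 154 against 820 and 1717 distally (3.03, SE 0.34). Itga3 was at 102 and 161 against 594 and 768 proximally (2.39, SE 0.28) and at 93.9 and 119 against 537 and 941 distally (2.74, SE 0.31). All 3 genes passed the test in both segments, with adjusted p between 0.0024 and 0.034, and no control library reached a knockout library. Itgb6, the beta subunit with which alpha v activates TGF-beta, rose distally from 0.978 and 2.90 to 93.0 and 220 (5.70, SE 0.69, adjusted p = 0.0049). Proximally it was at 0 and 18.4 against 173 and 185 and missed the threshold (adjusted p = 0.062). Itga7, a laminin receptor subunit best known from muscle, rose distally from 210 and 237 to 625 and 511 (1.34, SE 0.18, adjusted p = 0.0063).

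Markers of epithelial cells moved in the same direction in these libraries. The summed level of the 5 epithelial markers Epcam, Cdh1, Krt8, Krt18 and Krt20, all 5 of which were listed, was 9.67 to 382 CPM in proximal GWTT and 976 to 1202 in GS4T, and 43.5 to 136 against 539 to 1051 in the distal colon. The 7 goblet markers summed to 4.34 to 379 against 439 to 953 proximally, and to 139 to 286 against 283 to 823 distally, where the groups overlapped. They did not all move alike: distally Spink4 (log2 fold change 3.52), Agr2 (2.93) and Muc2 (2.90) rose, but Clca1 fell (-3.08). As a share of the level in GS4M2 goblet cells of the proximal colon, the GS4T libraries held 15.1% of the epithelial markers, 14.8% of Itga3, 15.99% of Itga6 and 20.4% of Itgb4, but 34.4% of Itgb6, 47.3% of Lamb3 and 68.6% of Lama3. The share of the 7 goblet markers was lower, at 1.85% proximally and 1.215% distally. Distally the share was 9.76% for the epithelial markers, 17.1% to 18.7% for the 3 receptor subunits, 34.1% for Itgb6, 42.1% for Lamb3 and 105% for Lama3. In control cells, GWTT against GWTM2, Lama3 already stood above the markers, at 19.2% against 2.65% proximally and 24.3% against 1.13% distally. There Lamb3 was at 8.81% and 1.70%, and Itgb6 at 4.06% and 0.532%. The part of epithelial cells in these changes was not tested. In bulk samples, more cells of a type and more RNA per cell cannot be told apart.

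**Figure D3:**
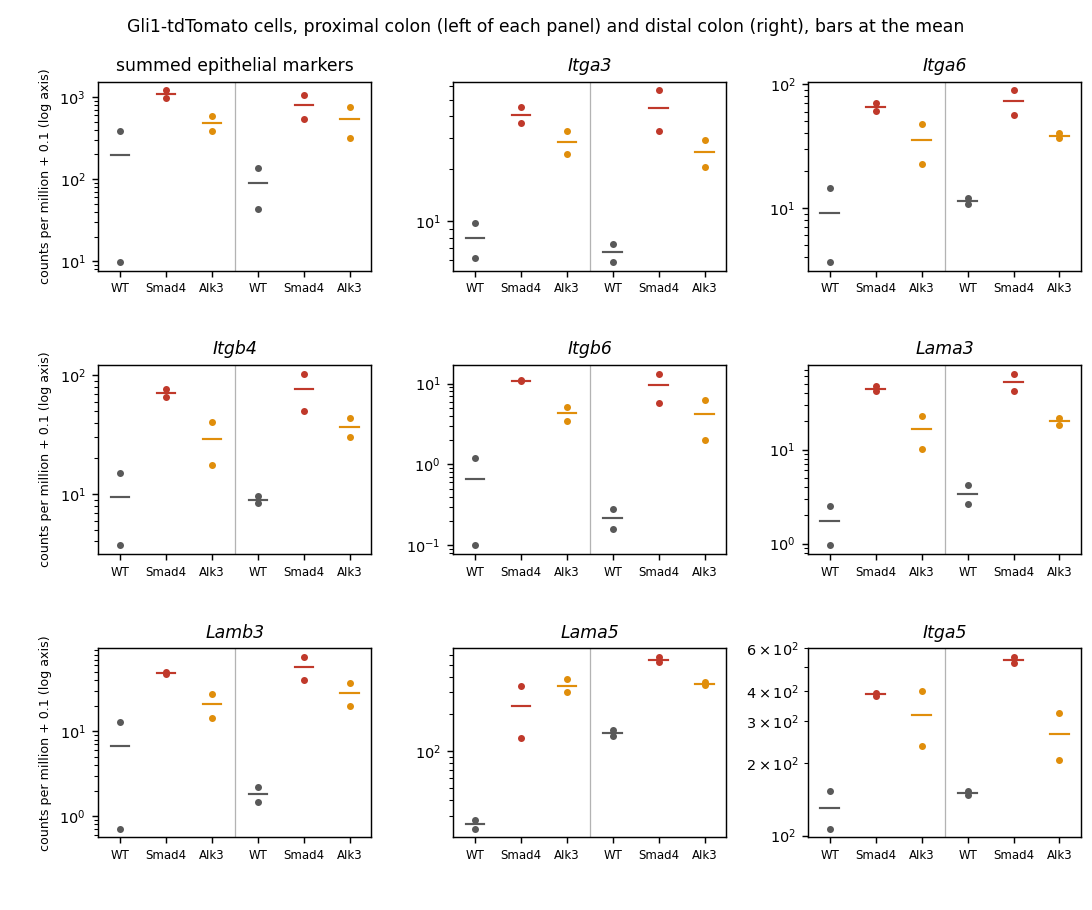
CPM plus 0.1, on a log axis, of the summed epithelial markers and 8 members in the 12 Gli1-tdTomato stromal libraries. Points are libraries, bars are means of 2 libraries, WT is GWTT, Smad4 is GS4T and Alk3 is GA3T. The markers and the 8 members lie higher in both knockouts than in GWTT, if by little for the markers in proximal Alk3 libraries.

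The alpha chains Lama1 and Lama5, which form basement membrane laminins with Lamb1 and Lamc1, also rose in GS4T stroma. Lama1 was at 1272 and 471 normalized counts in proximal GWTT and at 5900 and 4632 in GS4T (log2 fold change 2.75, SE 0.47, adjusted p = 0.024). Distally it was at 759 and 841 against 8291 and 11450, a 12.3-fold higher mean (3.61, SE 0.17, adjusted p = 0.00059). Lama1 had no row in the goblet tables, so no goblet level was at hand. Lama5 was at 397 and 461 against 5495 and 2183 proximally (3.01, SE 0.43, adjusted p = 0.016) and at 2410 and 2142 against 9448 and 8725 distally (1.998, SE 0.12, adjusted p = 0.00086). The stromal Lama5 level was far above that in goblet cells of the same genotype, with a mean of 233 against 2.93 CPM proximally and 549 against 13.98 distally. The chains that were most abundant in control stroma passed no call: Lama2 had log2 fold changes of -0.16 and -0.03, Lama4 of 0.21 and 0.30, Lamb1 of 0.58 and 0.35 and Lamc1 of 0.23 and 0.65 in the proximal and distal colon. Lamb2 had an adjusted p of 0.041 and 0.036 with values of -0.84 and -0.48, below the fold limit.

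The receptor subunits of fibroblasts for fibronectin and collagen went in both directions. Itga5, which binds fibronectin together with Itgb1, was at 2597 and 1771 normalized counts against 6381 and 6507 proximally (log2 fold change 1.59, SE 0.20, adjusted p = 0.012) and at 2424 and 2476 against 9066 and 8727 distally (1.86, SE 0.10, adjusted p = 0.00075). Itga1, a collagen receptor subunit, was at 1196 and 954 against 4005 and 3100 proximally (1.72, SE 0.18, adjusted p = 0.0084) and at 1653 and 1666 against 7429 and 6248 distally (2.04, SE 0.12, adjusted p = 0.00095). Both genes were higher in every GS4T than in every GWTT library. Itga11, the collagen receptor subunit with the highest level per exon length in control stroma, was lower in every GS4T library, at 2937 and 3147 against 2164 and 2000 proximally (-0.55, SE 0.10, adjusted p = 0.028) and at 2353 and 2215 against 1398 and 1103 distally (-0.88, SE 0.14, adjusted p = 0.011), and it stayed below the fold limit. Itga2, another collagen receptor subunit, had log2 fold changes of 0.90 and 0.64, also below the limit. Itgb3, which pairs with alpha v in stromal cells and with Itga2b on platelets, was at 1505 and 1452 against 4051 and 2459 proximally (1.09, SE 0.24, adjusted p = 0.043) and at 1149 and 1151 against 4215 and 3349 distally (1.71, SE 0.14, adjusted p = 0.0017). The 3 platelet markers summed to 5.26 to 9.70 against 7.29 to 50.1 CPM proximally and to 8.47 to 26.8 against 36.8 to 170 distally, whereas the platelet subunit Itga2b had log2 fold changes of -0.79 and -0.35. Itgav was at 2652 and 2556 against 4409 and 4308 proximally and at 3433 and 3293 against 6588 and 5887 distally, with fold changes of 0.74 and 0.89 below the limit.

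A smaller set was lower after Smad4 loss. Itga8, a receptor subunit of myofibroblasts and smooth muscle, was at 333 and 374 normalized counts in distal GWTT and at 121 and 54.0 in GS4T (log2 fold change -2.11, SE 0.40, adjusted p = 0.017). Itgb8, which pairs with alpha v and activates TGF-beta, was at 852 and 1002 against 297 and 355 (-1.51, SE 0.16, adjusted p = 0.0036). Proximally Itga8 was at 127 and 113 against 53.5 and 51.8 and Itgb8 at 356 and 564 against 235 and 161, and both missed the threshold (adjusted p = 0.053 and 0.059). No knockout library reached a control library for either gene. Without distal GWTT library 1 or library 2, Itga8 lost its call (adjusted p = 0.073 and 0.090).

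The leukocyte subunits did not move as 1 group. Itgam, the CD11b subunit of macrophages and neutrophils, was at 115 and 260 normalized counts against 1540 and 795 proximally (log2 fold change 2.67, SE 0.49, adjusted p = 0.028) and at 457 and 460 against 3442 and 1800 distally (2.44, SE 0.29, adjusted p = 0.0048). Its partner Itgb2 rose proximally from 325 and 407 to 793 and 698 (1.03, SE 0.17, adjusted p = 0.021), as did Itgax, the CD11c subunit, from 96.2 and 128 to 434 and 348 (1.80, SE 0.24, adjusted p = 0.014). The 10 macrophage markers summed to 201 to 319 against 977 to 1721 CPM proximally and to 675 to 772 against 1273 to 2255 distally. The 7 neutrophil markers, of which Elane had no row in these tables, Ly6g was at 0 in both proximal controls and Cxcr2 at 0 in both distal controls, summed to 2.08 to 6.49 against 66.9 to 83.1 and to 3.58 to 6.32 against 162 to 226. Of the 7, only Ly6g had a row in the organoid tables, at 133 to 169 CPM in 12-hour controls, so it was not limited to neutrophils.

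Itgb7, the beta subunit of gut-homing lymphocytes, fell from 378 and 394 to 148 and 208 proximally (log2 fold change -1.13, SE 0.22, adjusted p = 0.033) and from 351 and 540 to 70.0 and 116 distally (-2.26, SE 0.34, adjusted p = 0.0089). Itgal, the LFA-1 alpha subunit, fell distally from 658 and 847 to 349 and 305 (-1.19, SE 0.18, adjusted p = 0.0087). Itgae, the partner of Itgb7 on lymphocytes of the epithelium, was at 51.8 and 45.5 against 0.886 and 11.7 distally and missed the threshold (adjusted p = 0.059). Proximally it was at 82.7 and 50.2 against 60.9 and 125, which overlapped. The difference of its change between segments was 3.77 on the log2 scale (SE 1.22, adjusted p = 0.33). The 6 B and plasma cell markers summed to 1567 to 2791 against 429 to 829 CPM proximally and 3496 to 4830 against 112 to 449 distally, while the 8 T cell markers summed to 41.0 to 51.9 against 31.3 to 36.8 and to 23.7 to 37.8 against 27.0 to 30.7. The part of leukocytes in these changes was not tested. The distal calls of Itgal and Itgb7 were lost without GWTT library 2 (adjusted p = 0.065 and 0.057).

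The proximal set rested on few libraries. Without proximal GS4T library 1, which left a lone library in that group, far fewer members and far fewer of all genes were called. Fewer members were also called without library 2, the library with little Gli1. Lama5 kept its call in each case. Itgb3 also lost its call without either GWTT library (adjusted p = 0.057 and 0.051) and Itgb7 without GWTT library 1 (adjusted p = 0.052). Itgb2 fell short of the fold limit without GWTT library 1 or with upper-quartile rescaling. Distally the number of members called changed less when any 1 library was left out. The proximal and distal changes were compared by an interaction term, and 0 of the 36 members passed in limma (0.189% of all genes passed), with 4 at an unadjusted p under 0.05 (5.21% of genes).

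In GA3T stroma, 1 member was called in the proximal colon, beside 0.358% of 15346 genes (0.345% up and 0.013% down), and 0 in the distal colon, beside 0% of 15414 genes. Lama5 was the called member. It was at 418 and 485 normalized counts in proximal GWTT and at 5330 and 6650 in GA3T, a 13.3-fold higher mean (log2 fold change 3.72, SE 0.16, adjusted p = 0.035). Distally it was at 2749 and 2438 against 6054 and 6928 (1.32, SE 0.13, adjusted p = 0.067). The groups did not overlap in either segment, but the proximal call was lost without GWTT library 1 or GA3T library 2 (adjusted p = 0.15 and 0.084) and in edgeR (adjusted p = 0.060). The difference between the proximal and the distal change of Lama5 was 2.40 on the log2 scale (SE 0.21, adjusted p = 0.099). The segment test passed 0 of 36 members in limma, beside 0% of genes, with 2 at an unadjusted p under 0.05 (3.18%).

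The other members of GA3T stroma missed the adjusted threshold. At an unadjusted p under 0.05 and the same fold limit, 11 members passed proximally and 13 distally, beside 9.46% and 7.77% of all genes. DESeq2 called 10 and 12 members, beside 6.29% and 5.03% of all genes. Lamb3 was at 25.7 and 38.6 against 654 and 377 distally (log2 fold change 3.94, SE 0.38, adjusted p = 0.067). Itgb6 was at 0 and 19.4 against 60.1 and 89.3 proximally (4.04, adjusted p = 0.22) and at 1.12 and 3.31 against 111 and 37.2 distally (4.44, adjusted p = 0.12). Itgb8 was at 374 and 593 against 283 and 289 proximally (-0.72, adjusted p = 0.21) and at 972 and 1140 against 543 and 329 distally (-1.32, adjusted p = 0.13). Itga8 was at 379 and 425 against 325 and 107 distally, and Itgb7 at 398 and 414 against 193 and 272 proximally. These members were picked among those whose groups did not overlap, so their separation from control is not a result. The epithelial markers summed to 383 to 585 CPM in proximal and 321 to 758 in distal GA3T libraries, and the macrophage markers to 836 to 1519 and 810 to 1117. Their part in these differences was not tested.

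In goblet cells, where the deletion was not made, few members passed. In GS4M2 cells of the proximal colon, 3 of the 23 tested members rose and 1 fell, beside 0.325% of 13246 genes (0.174% up and 0.151% down). Distally 0 of 23 passed in limma, beside 0% of 13078 genes, with 1 member at an unadjusted p under 0.05 (2.7% of genes) and 1 in DESeq2 (1.13%). The median log2 fold change of the members was 0.15 and -0.12, close to that over all genes. In GA3M2 cells 0 of 24 members passed in limma in either segment, beside 0.0899% and 0% of genes. At the fold limit, 7 members proximally and 6 distally had an unadjusted p under 0.05 (6.83% and 4.12% of genes), and DESeq2 called 4 in each (3.18% and 1.83%).

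Lama3 was higher in every knockout than in every control goblet library of its segment. In the proximal colon it rose from 153 and 138 normalized counts in GWTM2 to 1031 and 1137 in GS4M2, a 7.45-fold higher mean (log2 fold change 2.89, SE 0.14, adjusted p = 0.0084). Against the same controls, GA3M2 libraries were at 1037 and 2588 (3.40, SE 0.42, adjusted p = 0.071). Distal controls were at 260 and 222, GS4M2 libraries at 627 and 1110 (1.79, SE 0.30, adjusted p = 0.37) and GA3M2 libraries at 1528 and 4248 (3.46, SE 0.47, adjusted p = 0.20). DESeq2 called Lama3 in all 4 comparisons. In limma the proximal GS4M2 call held without any single library. Its partner chain Lamb3 had log2 fold changes of 0.42 and 0.41 in GS4M2 and 1.04 and 1.09 in GA3M2 cells, none of which passed.

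Itgav, the alpha v subunit, rose in proximal GS4M2 cells from 440 and 379 to 918 and 920 normalized counts (log2 fold change 1.17, SE 0.13, adjusted p = 0.037). Itgb8, which binds alpha v, rose from 1.72 and 3.24 to 84.1 and 59.0 (4.40, SE 0.50, adjusted p = 0.039). Itgb6, another partner of alpha v, was at 196 and 272 against 455 and 588 and missed the threshold (1.16, adjusted p = 0.096). Control levels of Itgb8 were close to 0 reads. In GA3M2 cells Itgav was at 468 and 401 against 880 and 1157 proximally (adjusted p = 0.14) and at 650 and 462 against 994 and 1536 distally (adjusted p = 0.32). Itgb8 was at 1.83 and 3.42 against 15.1 and 29.5 proximally and at 3.84 and 1.09 against 42.1 and 18.2 distally. In distal GS4M2 cells Itgav was at 679 and 479 against 544 and 746, which overlapped.

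Lamb1 fell in proximal GS4M2 cells from 148 and 249 to 18.9 and 18.3 normalized counts (log2 fold change -3.30, SE 0.33, adjusted p = 0.031). In GA3M2 cells it was at 157 and 264 against 48.3 and 47.0 proximally (-2.07, adjusted p = 0.13) and at 13.4 and 10.9 against 60.7 and 84.4 distally (2.47, adjusted p = 0.28). Distal control and GS4M2 libraries lay between 11.3 and 14.05. The difference of the GA3M2 change between segments was -4.54 (SE 0.52, adjusted p = 0.31), and 0 members passed that test in limma, beside 0% of genes, with 2 at an unadjusted p under 0.05 (1.01%). For GS4M2 0 members passed, beside 0% of genes, with 4 at an unadjusted p under 0.05 (2.36%). None of the 6 fibroblast markers had a row in the GS4M2 tables, so their level in those libraries was not known. In the GA3M2 tables, 4 had a row proximally and summed to 3.69 to 19.8 CPM against 0.252 in both GWTM2 libraries, and 1 had a row distally, at 0.469 to 0.854 against 0 to 0.283 CPM. The 8 macrophage markers with a row summed to 111 to 129 against 42.2 to 62.6 CPM in proximal GA3M2 and control libraries. Distally the 7 with a row summed to 121 to 128 against 53.1 to 150 CPM, which overlapped. Their part was not tested. The calls of Itgav and Itgb8 were lost without GWTM2 library 2, GS4M2 library 1 or GS4M2 library 2 (adjusted p between 0.052 and 0.18), and that of Lamb1 without the first 2 of these (adjusted p = 0.11 and 0.062).

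Other members of goblet cells differed without passing. Lama5 was at 92.7 and 122 normalized counts in proximal GWTM2 and at 38.9 and 59.0 in GS4M2 libraries (log2 fold change -1.13, adjusted p = 0.18), and at 116 and 122 against 174 and 308 in distal ones (0.95, adjusted p = 0.45). Lamb2 was at 422 and 456 against 265 and 105 in proximal GA3M2 cells (-1.39, adjusted p = 0.26). Itga1 was at 290 and 368 against 158 and 198 and Itga5 at 383 and 439 against 297 and 243 in distal GA3M2 cells. Itga2 was at 3801 and 2687 against 2120 and 1997 in distal GS4M2 cells, and Itga5 at 400 and 455 against 266 and 398. Lack of overlap was a condition for picking these members and is not a result. The abundant hemidesmosomal and beta 1 subunits moved little in proximal GS4M2 cells, with log2 fold changes of 0.15 for Itga6, -0.04 for Itgb4, 0.19 for Itga3 and -0.15 for Itgb1.

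**Figure D4:**
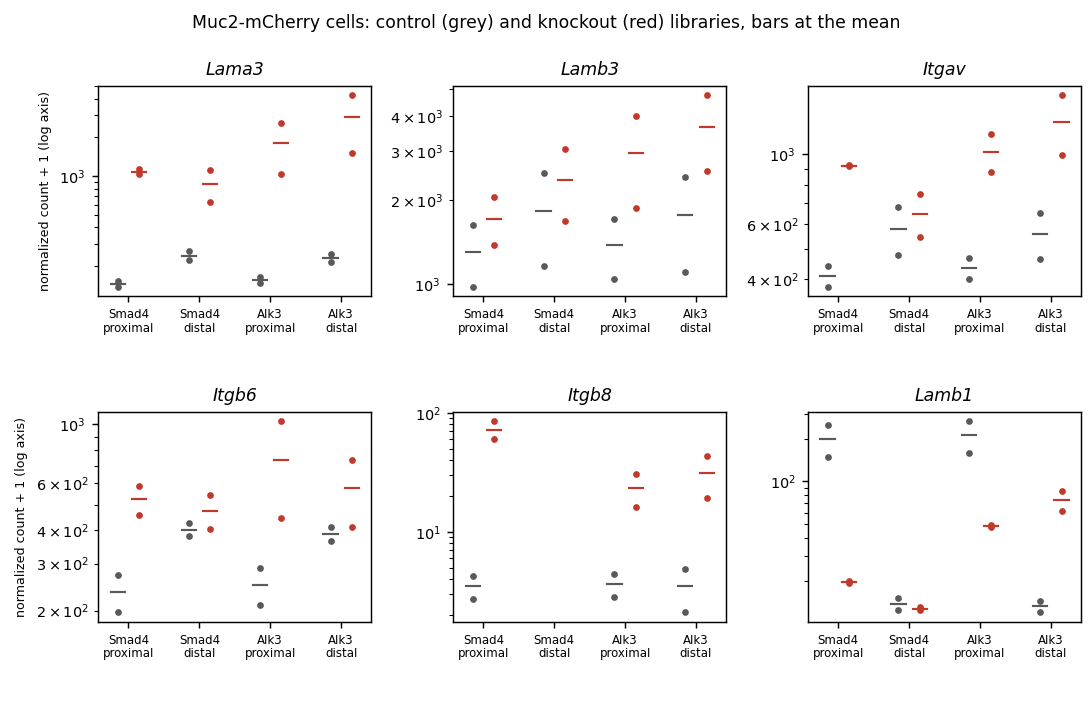
Normalized counts plus 1, on a log axis, of 6 members in Muc2-mCherry goblet cells, for Smad4 (GS4M2) and Alk3 (GA3M2) loss in the proximal and distal colon. Grey points are the 2 control and red points the 2 knockout libraries, bars are means, and Itgb8 has no row for distal GS4M2. Lama3 lies higher in the knockouts in all 4 comparisons, and Lamb1 lies lower in both proximal comparisons.

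In organoids, the promoters of the 4 members whose response to IL-1 differed between 12 and 72 hours, as described next, are given for orientation. The windows are the 250 bases before the RefSeq start on build GRCm38.p6, written 5′ to 3′ on the gene's strand, with GC boxes (GGGCGG on either strand) in capitals. Itga2b lies at chr11:102469884-102470133 (minus strand), Itgb5 at chr16:33829415-33829664 (plus), Lama5 at chr2:180225860-180226109 (minus) and Lamb3 at chr1:193301744-193301993 (plus, the first of 2 listed starts).
Itga2b: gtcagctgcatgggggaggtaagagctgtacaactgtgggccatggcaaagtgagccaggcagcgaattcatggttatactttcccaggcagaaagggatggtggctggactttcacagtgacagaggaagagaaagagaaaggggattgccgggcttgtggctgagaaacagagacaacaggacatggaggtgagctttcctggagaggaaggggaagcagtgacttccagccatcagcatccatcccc
Itgb5: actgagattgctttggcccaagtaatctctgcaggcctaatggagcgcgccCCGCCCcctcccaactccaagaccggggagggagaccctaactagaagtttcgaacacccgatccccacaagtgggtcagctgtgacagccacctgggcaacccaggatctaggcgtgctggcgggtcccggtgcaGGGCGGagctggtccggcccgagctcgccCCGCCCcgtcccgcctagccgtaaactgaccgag
Lama5: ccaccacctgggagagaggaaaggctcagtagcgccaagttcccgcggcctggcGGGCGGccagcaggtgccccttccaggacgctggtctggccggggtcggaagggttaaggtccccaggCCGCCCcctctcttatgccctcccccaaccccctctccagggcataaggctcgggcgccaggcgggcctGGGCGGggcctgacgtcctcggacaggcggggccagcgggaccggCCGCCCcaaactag
Lamb3: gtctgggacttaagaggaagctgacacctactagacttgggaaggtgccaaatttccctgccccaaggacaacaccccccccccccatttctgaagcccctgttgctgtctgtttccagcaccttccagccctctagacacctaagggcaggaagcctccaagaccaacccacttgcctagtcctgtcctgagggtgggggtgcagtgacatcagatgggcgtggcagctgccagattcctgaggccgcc
The Itgb5 window held 3 GC boxes, at 199, 63 and 34 bases before the start, and the Lama5 window held 4, at 196, 128, 59 and 14 bases. A GC box stood in 32.74% of all 32851 windows of this length and in the windows of 8 of the 23 members that had one. The motifs TGANTCA (AP-1; 6.749% of windows, both strands searched), GTCTAGAC (Smad; 0.1674%) and TATAAA (12.37%), and an NF-kB motif (0.3562%), were not in these 4 windows, which says only that these letters are not there. Among all member windows, TGANTCA occurred in that of Itgax.

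After 72 hours of IL-1, 6 of 24 tested members rose and 0 fell, beside 23% of 13023 genes (10.9% up and 12.2% down). The share called was thus near that of all genes. Each 72-hour control matched or was close to a 12-hour control. In the 72-hour changes with IL-1 or IL-17A, of members and of partner genes, time in culture and time with the cytokine cannot be told apart. The median log2 fold change of the members was 0.59, against -0.0009 over all genes. The 6 were Lama5, Lamb3, Itgav, Itgb5, Itga7 and Itga2b. Lama5, the main alpha chain of the mature gut basement membrane, was at 204, 899 and 1085 normalized counts in control and at 7840, 9947 and 20167 in IL-1 libraries (log2 fold change 4.31, SE 0.63, adjusted p = 0.0036). Lamb3 was at 2934, 2460 and 2484 against 8610, 9216 and 12451 (1.93, SE 0.18, adjusted p = 0.0020). Both genes were higher in every treated library. Itga3 was at 3691, 3283 and 3225 against 6420, 7338 and 6508, with a log2 fold change of 0.99 just below the fold limit (adjusted p = 0.0032). Itga6 was at 6051, 5987 and 6000 against 4877, 5531 and 3974 (-0.34, adjusted p = 0.12).

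Itgav was at 859, 952 and 1083 normalized counts in control and at 2039, 2022 and 2818 after 72 hours of IL-1 (log2 fold change 1.24, SE 0.18, adjusted p = 0.0035). Itgb5, a partner of alpha v that binds vitronectin, was at 343, 365 and 293 against 872, 750 and 1023 (1.39, SE 0.18, adjusted p = 0.0030). Neither overlapped. Itga2b, known as the platelet subunit, was low, at 17.7, 20.0 and 20.4 against 72.2, 42.8 and 105 (1.78, SE 0.41, adjusted p = 0.013). Itga7 was at 699, 173 and 171 against 1442, 688 and 1765 (2.13, SE 0.58, adjusted p = 0.024). Its high control, library 1, lay above the lowest treated library. That library was male and the other 2 controls female. Itga7 lost its call when the near-identical controls 2 and 4 were averaged (adjusted p = 0.074), and without control 2 or 4 or treated library 1 or 3 (adjusted p = 0.067 to 0.089). The other 5 members kept their calls without any single library.

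After 72 hours of IL-17A, 5 of 25 tested members rose and 0 fell, beside 7.94% of 13073 genes (5.02% up and 2.92% down). At an unadjusted p under 0.05, 9 members passed, beside 20.6% of genes. These were Itga7, Itgav, Itga2b, Itgb5 and Lamb3, measured against the same control libraries as IL-1. Lamb3 was at 7666, 4885 and 12560 normalized counts (log2 fold change 1.58, SE 0.33, adjusted p = 0.043) and Itgb5 at 865, 710 and 1180 (1.44, SE 0.23, adjusted p = 0.035). Itgav was at 1948, 1779 and 3299 (1.23, SE 0.25, adjusted p = 0.042), Itga7 at 1249, 1120 and 1853 (2.32, SE 0.55, adjusted p = 0.047) and Itga2b at 85.1, 39.5 and 132 (1.93, SE 0.49, adjusted p = 0.0499). No group overlapped, but all 5 calls lay near the threshold. Lama5 was at 7330, 1038 and 30171 (3.39, SE 1.21, adjusted p = 0.092), and library 2 lay within the control range. The 5 calls were lost when control libraries 2 and 4 were averaged, and 0 members were called without control 2, control 4, treated library 1 or treated library 3, against 1 without control 1. The 3 IL-17A libraries were male and 2 of the 3 controls were female.

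After 12 hours, 0 of 24 members passed in limma for either cytokine, beside 0.0542% of 12913 genes for IL-1 and 0.0385% of 12977 for IL-17A. At an unadjusted p under 0.05, 2 members passed for IL-1 (0.922% of genes) and 1 for IL-17A (1.08%), and DESeq2 called 1 for each (0.333% and 0.393% of genes). The member called by DESeq2 was Lama4, an alpha chain of vessels and mesenchyme. It was at 5.62, 0.936 and 5.30 normalized counts in control, at 47.9, 43.5 and 27.0 with IL-1 (log2 fold change 3.19, adjusted p = 0.36 in limma and 0.00022 in DESeq2) and at 56.2, 72.2 and 59.1 with IL-17A (3.82, adjusted p = 0.14 and 4.0e-09). All treated libraries lay above all controls, which was also a condition for naming the gene here. With the near-identical treated libraries 3 and 4 summed to 1, DESeq2 still called Lama4 (adjusted p = 0.017 with IL-1 and 0.00012 with IL-17A), whereas limma with these libraries averaged gave an adjusted p of 1.00 and 0.91. At 72 hours Lama4 overlapped with control for both cytokines. Lama3 was at 586, 462 and 451 against 692, 724 and 690 with IL-17A (0.50, adjusted p = 0.77). Lama5 was at 1091, 215 and 1131 in 12-hour controls and at 1170, 1218 and 1150 with IL-1 (adjusted p = 0.89), and Itga2b at 29.1, 18.7 and 21.2 against 13.4, 6.61 and 9.32 (-1.18, adjusted p = 0.89).

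The change with IL-1 was larger at 72 than at 12 hours for 4 of the members, beside 17.4% of 12955 genes that passed the interaction test. As 24 members were tested, this share was close to that of all genes and says nothing particular about the members. The difference was 3.44 on the log2 scale for Lama5 (SE 0.99, adjusted p = 0.028), 2.96 for Itga2b (SE 0.54, adjusted p = 0.0064), 1.66 for Lamb3 (SE 0.24, adjusted p = 0.0053) and 1.09 for Itgb5 (SE 0.21, adjusted p = 0.0079). Because the controls of the 2 times shared reads, the treated libraries of 72 and 12 hours were also compared directly. Each distinct library was used once, which left 3 control, 2 treated 12-hour and 3 treated 72-hour libraries, and the controls entered only the spread. In both tests, time in culture and time with the cytokine cannot be told apart, because every 72-hour control matched or was close to a 12-hour control. The same 4 members passed, with differences of 3.39 (SE 0.67, adjusted p = 0.016), 2.71 (SE 0.49, adjusted p = 0.014), 1.48 (SE 0.21, adjusted p = 0.013) and 1.13 (SE 0.19, adjusted p = 0.014), beside 15% of 13015 genes. Without IL-1 72-hour library 3, 2 members passed the interaction test, beside 11.8% of genes. For IL-17A 0 members passed, beside 0.0384% of genes, with 3 at an unadjusted p under 0.05 (15.8%). Without IL-17A 72-hour library 2, the library with low Lama5, 5 passed, beside 21.6% of genes. Neither of these counts with a library left out stood above the share of all genes. The summed epithelial markers were 5986 to 6845 CPM in 72-hour controls, 8703 to 9851 with IL-1 and 8347 to 9215 with IL-17A, and 6544 to 6938 and 6474 to 7191 at 12 hours. Their part in these changes was not tested.

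**Figure D5:**
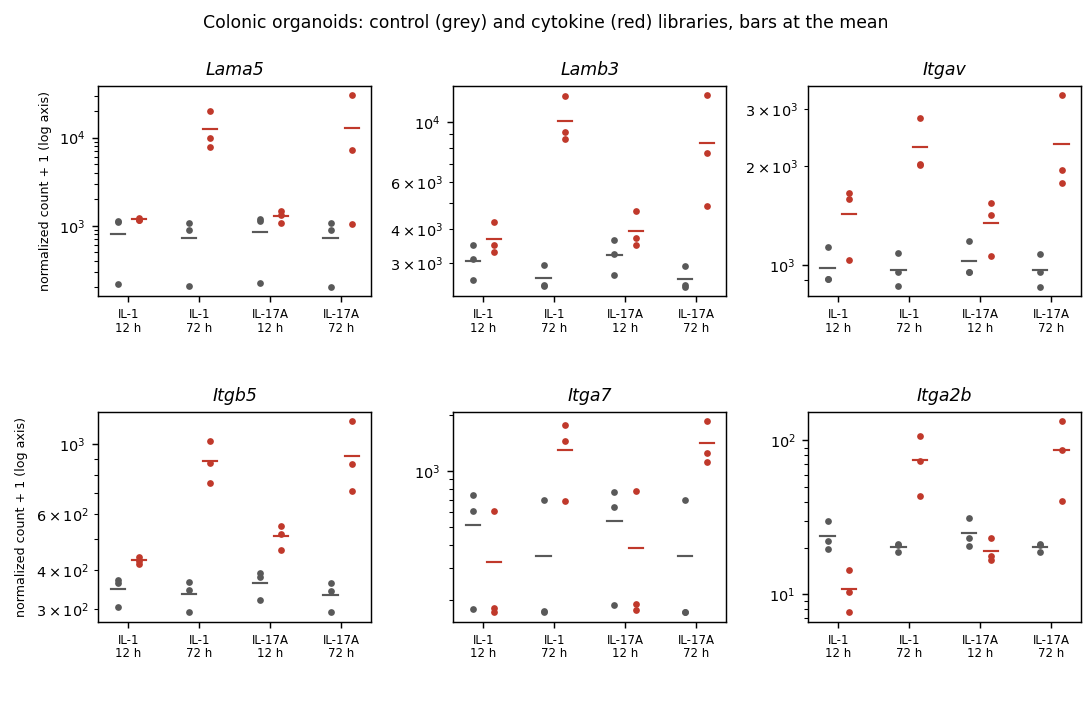
Normalized counts plus 1, on a log axis, of 6 members in colonic organoids after 12 or 72 hours of IL-1 or IL-17A. Grey points are the 3 control and red points the 3 treated libraries, and bars are means. Treated Lamb3, Itgav and Itgb5 libraries lie above all controls at 72 hours, whereas 1 control of Itga7 lies above 1 IL-1 library and 1 IL-17A library of Lama5 lies among the controls.

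Genes that work with laminins and integrins were taken from 4 lists, whose counts stand beside the shares of all genes given above, 9.61% and 14% in proximal and distal GS4T stroma and 23% and 7.94% with IL-1 and IL-17A at 72 hours. Of 19 basement membrane partners, 5 rose and 5 fell in proximal GS4T stroma, and 5 rose and 3 fell distally, with median log2 fold changes of -0.33 and -0.03 against 0.02 and 0.0049 over all genes. Those with the largest changes were Col7a1, the anchoring fibril collagen (log2 fold change 3.40 proximally and 4.86 distally), Col4a3, a minor type IV collagen chain (-3.31 proximally), Col4a4 (-2.58 proximally), Col4a6 (-2.54 distally), Col18a1 (2.53 and 2.16) and the nidogen Nid2 (2.47 and 2.34). Of the type IV chains with higher counts, Col4a1 (1.74 and 1.74) and Col4a2 (1.82 and 1.77) rose in both segments of GS4T stroma. Col4a5 fell distally (-1.45). Proximal means went from 35440 to 116960 normalized counts for Col4a1, and from 81.9 to 7.21 for Col4a3. In GA3T stroma Col18a1 and Nid2 rose in the proximal colon (2.46 and 2.37). In proximal GS4M2 goblet cells 1 of 7 tested partners was called, Ntn4, which caps laminin networks and fell by 2.31 on the log2 scale. In organoids at 72 hours, 5 of 11 rose with IL-1, among them Nid1 (3.49), Col7a1 (1.74), the perlecan gene Hspg2 (1.62) and Agrn (1.56), and 3 of 11 rose with IL-17A, namely Hspg2 (1.99), Col18a1 (1.66) and Agrn (1.31). The medians over the 11 were 1.56 and 0.58.

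Of the 9 other laminin receptors and hemidesmosome genes, 3 rose in GS4T stroma in each segment: the syndecan Sdc1 (log2 fold change 3.16 proximally and 2.55 distally), Mcam (2.67 and 2.27) and Sdc4 (1.01 and 1.19). The median of the list was 0.33 and 0.54. In organoids at 72 hours, 3 of 7 rose with IL-1, namely the laminin receptor Bcam (1.53), Sdc1 (1.35) and the hemidesmosome linker Plec (1.202), and Bcam rose with IL-17A (1.58). Of 23 integrin adaptors tested in proximal GS4T stroma, Actn1 (1.98) and Bcar1 (1.14) rose and Lims2 fell (-1.45), and distally 4 rose, with Fermt1, the kindlin of epithelial cells (3.56), ahead of Tns4 (2.39) and Actn1 (1.53). These counts were near the shares of all genes, and the median of the list was 0.52 and 0.36. Of 17 other integrin ligands, 5 rose and 1 fell proximally and 5 rose and 3 fell distally, with medians of 0.57 and 0.48. Osteopontin, Spp1, rose in both (6.61 and 4.66). Madcam1, the gut vessel ligand of the alpha 4 beta 7 integrin, was listed at 0 in both proximal controls and at a mean of 41.6 in GS4T, and rose distally (3.80). Tenascin C, Tnc, rose in both (1.67 and 2.49), while Tgfb3, whose latent form is bound by alpha v integrins, fell in both (-1.59 and -1.29). Distally Cdh1, the ligand of the Itgae and Itgb7 pair and also an epithelial marker, rose (3.89) and Edil3 fell (-2.76). In proximal GA3M2 goblet cells Spp1 was listed at 0 in both controls and had a mean of 231, and in organoids at 72 hours Tgfb1 rose with IL-1 (1.42) and IL-17A (1.67) while Thbs1 fell with IL-1 (-2.10).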

How the data were processed

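Libraries were made with a SMARTER mRNA-Seq kit, and per the labels and methods the authors mapped reads to mm10 with STAR 2.5.3 and normalized gene counts with DESeq2 1.28.1. The values are the authors' deposited normalized counts, a signal per gene scaled separately in each of 12 tables, and not raw counts as the design had assumed, so limma on log2(value + 1) replaced a count test as the main test. Whole reads were recovered from the steps between values (tolerance 0.1) and served for CPM and for edgeR and DESeq2 as alternatives. Reads on named genes, the totals used for CPM, were 15647603 to 20783127 in goblet, 14222902 to 23686940 in stromal and 14815170 to 17665812 in organoid libraries. Each goblet table of GS4M2 held 4 rows without a gene name, which were dropped. These rows held 20.9% to 28.2% of the reads of the libraries in those tables. The authors' own fold changes and p-values were not used.

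Each comparison was fitted alone in limma 3.58.1 (R 4.3.3) with an intensity trend and Benjamini-Hochberg adjustment over all genes with a mean of at least 10. Differences between segments or times were tested as an interaction term in 1 fit of 4 groups. Members and gene lists were chosen with earlier results of these data known. Values in every library are given for members called in any comparison, and for up to 2 with the largest increase and decrease per comparison among groups that did not overlap; genes of other lists are named only if called, at most 4 a list. Other members with values, and the list genes Col4a1, Col4a2 and Col4a5, were chosen after these were seen. Exon lengths came from GENCODE M21 and promoters from RefSeq, in which 23 of 36 members matched. One member enters the counts but is not reported here. Alternatives were a pseudocount of 10, no filter on low values, upper-quartile rescaling, unadjusted p-values, a replicate block, edgeR 4.0.16 with TMM, DESeq2 1.42.0 and leaving out each library. After seeing the data, averaging near-identical organoid libraries (chi-square per gene under 5) or summing them for DESeq2, and using each distinct library once were added. Counting reads without molecular identifiers, the depth covers counting error only. Tamoxifen was given subcutaneously per the labels and intraperitoneally per the methods. The fits were tested on simulated data.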

Additional observations from a re-analysis of the deposited data

Results flagged for a closer look

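In organoids, the change with IL-1 differed between 72 and 12 hours for 4 members by the interaction term in limma, with differences on the log2 scale of 2.96 for Itga2b, 1.09 for Itgb5, 3.44 for Lama5 and 1.66 for Lamb3. Of all 12955 genes, 17.4% passed the same test, so the share among the 24 members was close to that of all genes. Time in culture and time with the cytokine cannot be told apart in this difference, because the 2 times shared control reads.

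In 16 cases every knockout library lay on one side of its controls in goblet cells and on the other side in stromal cells of the same genotype and segment, so that the signs of the log2 fold change were opposite. These differences between cell types were not tested, and the tables were normalized separately. The same count was not made over all genes, so the 16 cases cannot be read as a result about the members. In the proximal colon after Smad4 loss, the goblet and stromal values were 4.40 and -1.20 for Itgb8, -1.13 and 3.01 for Lama5, -3.30 and 0.58 for Lamb1 and -0.42 and 1.59 for Itga5. In the distal colon after Smad4 loss they were -0.64 and 0.64 for Itga2, -0.39 and 1.86 for Itga5, -0.19 and 0.36 for Itgb1 and -0.16 and 3.03 for Itgb4. In the proximal colon after Alk3 loss they were -0.86 and 1.22 for Itga1, -0.44 and 0.11 for Itgb5, 2.65 and -0.72 for Itgb8, -0.89 and 3.72 for Lama5 and -2.07 and 0.57 for Lamb1. In the distal colon after Alk3 loss they were -0.88 and 0.51 for Itga1, -0.61 and 0.77 for Itga5 and 3.18 and -1.32 for Itgb8. Most of these goblet and several stromal values did not pass the test on their own, and the 2 knockouts shared controls.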

How the results depend on the processing

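The number of members called, and not their direction, depended on the processing. With a replicate block on same-numbered libraries, 6 members were called in proximal GA3M2 cells (beside 5.24% of all genes under the same setting), 5 and 3 in proximal and distal GA3T stroma (1.65% and 0.402%), 1 each at 12 hours with IL-1 and IL-17A (0.774% and 0.925%), 0 with IL-17A at 72 hours (0.0306%) and 1 for the time difference of IL-17A (4.35%). Same-numbered libraries had correlated deviations of -0.057 to 0.30 in sorted cells, 0.62 to 0.64 in organoids at 12 hours and -0.19 to 0.20 at 72 hours, over 2 shared numbers, so the numbers did not establish pairs. Itga2b lost its IL-1 call at 72 hours with the block (adjusted p = 0.12). DESeq2 called 1 member in distal GS4M2, 4 and 4 in proximal and distal GA3M2, 10 and 12 in GA3T and 1 at 12 hours for each cytokine, also with near-identical libraries summed. At an unadjusted p and the same fold limit, 1, 7, 6, 11, 13, 2, 1 and 9 members passed in distal GS4M2, proximal and distal GA3M2, proximal and distal GA3T, IL-1 at 12 hours, IL-17A at 12 hours and IL-17A at 72 hours, and 4, 2, 4, 2 and 3 for the differences between segments in GS4M2, GA3M2, GS4T and GA3T and between times for IL-17A. edgeR called 0 in proximal GA3T. IL-17A gave 1 at 12 hours with a pseudocount of 10, and at 72 hours 3 after upper-quartile rescaling and 0 with near-identical libraries averaged. The cause of these differences was not tested.

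With 1 library left out, which leaves a lone library assumed to vary like the other groups, the number called ranged from 1 to 4 in proximal and 0 to 1 in distal GS4M2, 0 to 10 and 0 to 5 in GA3M2, 1 to 17 and 15 to 20 in GS4T, 0 to 1 and 0 to 11 in GA3T, 5 to 8 with IL-1 and 0 to 7 with IL-17A at 72 hours, 2 to 6 and 0 to 5 for the differences between times with IL-1 and IL-17A, and stayed at 0 at 12 hours. The 10 in proximal GA3M2, 5 in distal GA3M2 and 11 in distal GA3T were reached without GA3M2 library 1, GWTM2 library 1 and GA3T library 1 (7.75%, 4.87% and 4.87% of all genes), the 17 in proximal GS4T without GWTT library 2 (14.1%) and the 7 with IL-17A without IL-17A library 2 (27.5%). For the differences between times, the 2 members with IL-1 stood beside 11.8% of all genes and the 5 with IL-17A beside 21.6%. In proximal GS4T stroma, the lowest number of members came with a far lower share of all genes than in the main fit. With 2 libraries a group, changes under the fold limit and members near 0 reads were not resolved.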
